A study of Mus musculus with 3 samples.

Results

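The genes described here are Rest, the 2 CoREST scaffold genes Rcor1 and Rcor2, and 6 zinc finger repressor genes of the nervous system, Insm1, Myt1, Myt1l, St18, Scrt1 and Scrt2. They were taken as a named set of 9 genes, and every peak in the deposited list whose gene name equals one of them was used. Of the 9 genes, 7 had at least 1 such peak, and they had 10 of the 19979 peaks of the list. Myt1 and Myt1l had none.

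The peaks mark DNA recovered with an antibody against Sp9, a zinc finger transcription factor, from the olfactory bulb of CD1 mice at postnatal days 0 to 2. The labels name no mutation, no treatment and no second condition. They list 2 immunoprecipitation libraries and 1 input library without antibody, and do not say whether these used different animals. The whole bulb was used, so the cell types in which a peak arose cannot be told apart. The list gives 1 score and 1 gene name for each peak that the immunoprecipitations shared, so no comparison between groups and no replicate error can be given for any value below. Scores are the authors' own, lay between 80.01 and 3139.09 (median 210.06, upper quartile 353.56), and serve here only to rank peaks within this list.

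REST is a zinc finger protein that binds a DNA element called RE1 and represses neuronal genes in stem cells and in cells outside the nervous system. It recruits CoREST, the product of Rcor1 or Rcor2, which holds the histone demethylase LSD1 (Kdm1a) and the deacetylases HDAC1 and HDAC2 on chromatin. INSM1, SCRT1 and SCRT2 begin with a short SNAG domain, a docking site for such corepressors, and are made as progenitors turn into neurons. MYT1, MYT1L and ST18 form a separate family with zinc fingers of the C2HC type, and MYT1L is known for repressing non-neuronal genes in neurons.

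A gene is called linked to a peak that carries its name. Linked peaks were found for 7 of the 9 genes (77.8%), against 55.4% of 21900 protein-coding genes. A peak at or above the median score was linked to 6 of the 9 genes (66.7%), against 35.4% of coding genes, and a peak at or above the upper quartile to 5 of the 9 (55.6%), against 19.2%. These 5 were Rest, Rcor1, Rcor2, Insm1 and Scrt1. The highest score per gene had a median of 729.91 over the 7 linked genes and of 273.24 over the 12136 linked coding genes. For the highest score per bp of peak width among the peaks of each gene, the medians were nearer to each other, 0.353 and 0.253. These shares and medians are descriptions of 1 list, without a test, and 9 genes are too few for a share to be precise. The 9 genes, and the gene lists compared further below, were chosen with earlier results of these data known. Shares above the background are therefore no evidence of enrichment.

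**Figure D1:**
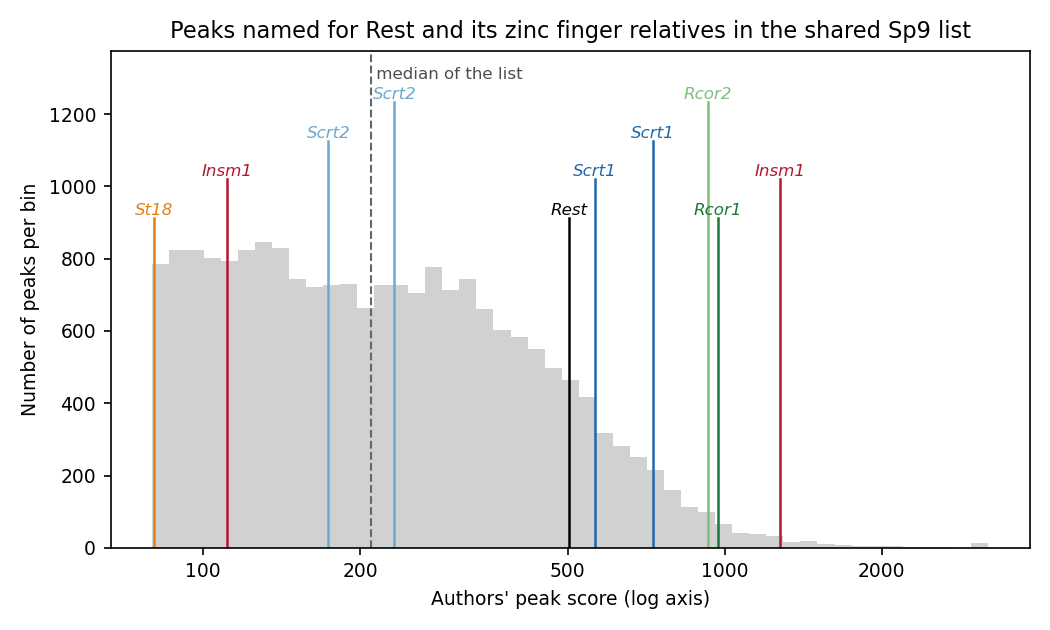
Histogram of the authors' scores of all 19979 peaks (grey, log axis) with a line at each of the 10 peaks named for Rest, Rcor1, Rcor2, Insm1, Scrt1, Scrt2 and St18, and a dashed line at the list's median. 7 of the 10 peaks lie at or above the median and 3 below it, with the main Insm1 peak the highest and the St18 peak at the floor of the list; line heights carry no value.

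Rest itself, the gene of the repressor, had 1 peak. It had a score of 504.24 and lay on chromosome 5 from 77694134 to 77695863 (mm9). This score was above those of 88.2% of all peaks, and the peak was 1729 bp wide, wider than 93.0% of them. The peaks on either side were named Spink2, 56.7 kb away with a score of 145.6, and Noa1, 42.3 kb away with 312.26. The Rest peak was thus a single upper-quartile peak, the highest of the 3 within 100 kb on either side, itself included.

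The CoREST genes had higher scores than Rest, and nearly equal ones. The single Rcor1 peak, on chromosome 12 from 112276366 to 112278684, scored 970.2 and ranked 258 in the whole list. The single Rcor2 peak, on chromosome 19 from 7341399 to 7343793, scored 930.7 and ranked 305. The peaks were 2318 and 2394 bp wide, against a median of 986 bp in the list. Among linked coding genes, 98.3% had a lower highest score than Rcor1 and 97.9% a lower one than Rcor2. Within 100 kb on either side, 3 other peaks lay near that of Rcor1 and 5 near that of Rcor2, all with lower scores. Some of these were upper-quartile peaks too, named Ankrd9 (369.19) near Rcor1 and Naa40 (360.94) near Rcor2. The next peaks beside Rcor1 were named 6030440G07Rik (score 124.36) and Traf3 (154.9), and those beside Rcor2 were named Naa40 and Mark2 (241.64). The remaining CoREST gene, Rcor3, had 1 peak of score 514.77, close to that of Rest.

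The upstream sequences of the CoREST genes are shown because GC boxes, the classical motif of the Sp family, can be read in them. They are the 250 bases before the start site in RefSeq (GRCm38.p6, plus strand), 5′ to 3′, with each GC box (GGGCGG, or CCGCCC on the opposite strand) in capitals. The Rcor1 window is chr12:111039117-111039366 and the Rcor2 window is chr19:7267144-7267393.
Rcor1: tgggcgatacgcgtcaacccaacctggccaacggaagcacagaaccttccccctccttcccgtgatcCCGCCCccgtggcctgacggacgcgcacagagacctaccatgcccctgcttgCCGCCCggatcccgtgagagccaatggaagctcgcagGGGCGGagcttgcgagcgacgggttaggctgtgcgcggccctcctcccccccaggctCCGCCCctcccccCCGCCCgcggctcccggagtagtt
Rcor2: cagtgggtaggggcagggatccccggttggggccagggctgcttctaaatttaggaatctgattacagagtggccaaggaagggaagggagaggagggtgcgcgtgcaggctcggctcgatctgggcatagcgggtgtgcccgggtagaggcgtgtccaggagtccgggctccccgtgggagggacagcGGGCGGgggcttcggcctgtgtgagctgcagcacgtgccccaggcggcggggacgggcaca
The Rcor1 window held 5 GC boxes and the Rcor2 window 1. Of 32851 such windows, 32.7% held at least 1 GC box and 1.93% held 5 or more. G and C made up 70.4% and 67.6% of the bases, against a median of 52.4%. Neither window held a GT box (GGGTGG, in 28.1% of windows), a homeobox core (TAATTA, in 4.84%) or the E box that Snail and Scratch proteins bind (CAGGTG, in 17.2%), read on both strands. The peaks are in build mm9 and the windows in GRCm38.p6, so whether a peak covers its window was not tested, and a match of letters is not a binding site.

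Insm1 had the highest score of the 9 genes. INSM1 is expressed in neurogenic progenitors and newborn neurons and in endocrine cells. Its main peak had a score of 1276.92, lay on chromosome 2 from 146046598 to 146049719 and was the third highest of 1478 peaks on that chromosome. It ranked 91 in the whole list and was 3121 bp wide, wider than 99.6% of all peaks. A second Insm1 peak, from 146043775 to 146044590, had a score of 111 and lay 2.01 kb before the first. The scores of the 2 peaks differed 11.5-fold, the widest spread within 1 of these genes. Apart from this pair the locus was empty in the list over a long stretch. The next peak on one side, named Crnkl1, was 283 kb from the low Insm1 peak, and the next on the other side, named Ralgapa2, was 287.3 kb from the high one, against a median of 58.2 kb for the stretches between neighbouring peaks of the list.

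The Scratch genes were both linked to 2 peaks, as 15.5% of coding genes were to 2 or more, but at different scores. SCRT1 and SCRT2 are repressors of the Snail superfamily that are made in postmitotic or differentiating neurons. Scrt1 had peaks of score 729.91 (chromosome 15 from 76348562 to 76350630) and 564.38 (from 76352971 to 76354632). The first was above 96.1% of all peaks and the second above 91.4%. These peaks lay 2.34 kb apart in a dense neighbourhood, with 11 other peaks within 100 kb of either, against a median of 2 in the list. Scrt2 had peaks of score 232.87 (chromosome 2 from 151873704 to 151875019) and 173.9 (from 151906683 to 151908200), which lay 31.7 kb apart. They were above 54.9% and 41.1% of all peaks. Both Scrt2 peaks were lower than both Scrt1 peaks, and the peak that followed them, named Srxn1, was higher (497.36, at 10.5 kb). Of the 9 genes, only Insm1, Scrt1 and Scrt2 (3 genes) had 2 peaks, and none had more.

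**Figure D2:**
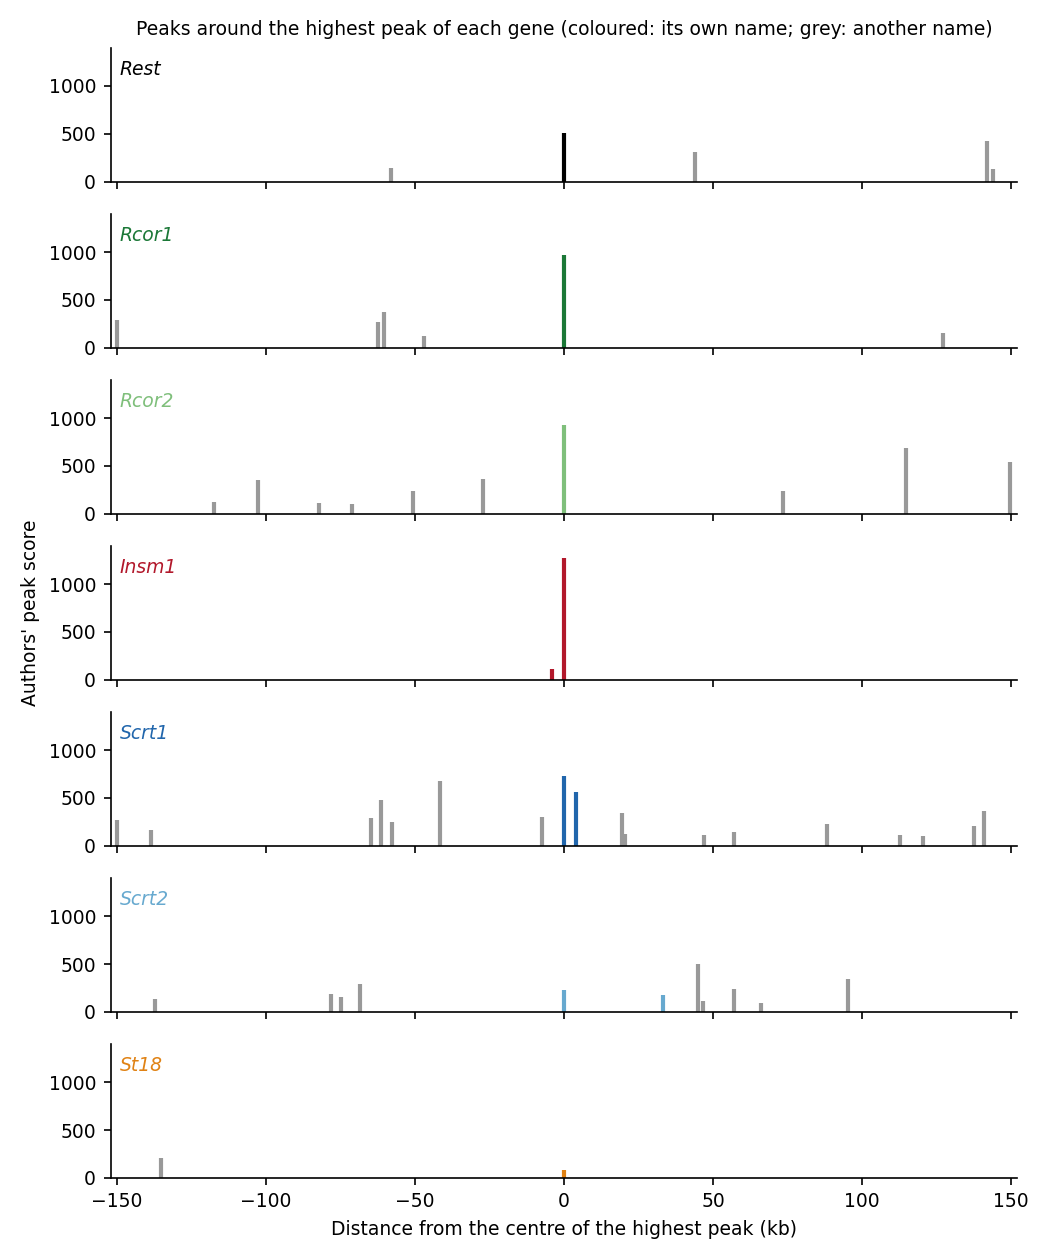
Scores of all peaks (height, authors' score) within 150 kb of the centre of the highest peak of Rest, Rcor1, Rcor2, Insm1, Scrt1, Scrt2 and St18; coloured lines carry the gene's own name and grey lines another name. The window of Insm1 held only its own 2 peaks, and that of Scrt1 held 18 peaks, of which its main peak was the highest. That of St18 held 2 peaks, its own (80.62) and one named Fam150a (208.68, near the list's median of 210.06).

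The Myt family stood at the other end. The only peak of St18, also named Myt3, lay on chromosome 1 from 6507842 to 6508550 and scored 80.62. Only 62 of the 19979 peaks had a lower score, and the peak was 708 bp wide, the narrowest of the 10. It was isolated as well, with the next peaks 134.5 kb away (named Fam150a, score 208.68) and 398.4 kb away (named Pcmtd1, score 85.94), so that no other peak lay within 100 kb.

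Myt1 and Myt1l had no linked peak under their symbols or under a synonym held by only 1 gene. By the order of genes in RefSeq, Myt1 sits on chromosome 2 between Rgs19 and Polr3k, the nearest coding genes with peaks. No peak of any name lay in the 201.6 kb from the end of the Rgs19 peak (181428990) to the start of the first Polr3k peak (181630572). This stretch was longer than 81.1% of the stretches between neighbouring peaks, whose median was 58.2 kb. Myt1l sits on chromosome 12 between Rps7 and Pxdn. No peak lay in the 1203.3 kb between the Rps7 peak (end 29321300) and the first Pxdn peak (start 30524648), and only 97 of 19859 stretches between neighbouring peaks were longer. In that order 5 coding genes stand between Rps7 and Myt1l, 2 between Rgs19 and Myt1 and 1 between Myt1 and Polr3k, so neither stretch belongs to the member alone. Both stretches were picked because they hold a gene without a peak, and longer stretches have room for more genes. Stretches picked in this way tend to exceed the median by construction, so these ranks do not show that either is unusual. No gene coordinate was joined to a peak, so neither stretch is known to cover the whole gene. Whether a peak named for a neighbour lies inside Myt1 or Myt1l was not tested. The depth of the libraries is unknown, so a gene without a listed peak may have had signal that the list does not hold.

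The first upstream windows of the 2 genes without a linked peak are shown beside those of the CoREST genes. They have the same form (RefSeq, GRCm38.p6, plus strand, 250 bases before the most upstream start site). They are chr2:181763082-181763331 for Myt1 and chr12:29528134-29528383 for Myt1l, and neither has capitals because neither holds a GC box.
Myt1: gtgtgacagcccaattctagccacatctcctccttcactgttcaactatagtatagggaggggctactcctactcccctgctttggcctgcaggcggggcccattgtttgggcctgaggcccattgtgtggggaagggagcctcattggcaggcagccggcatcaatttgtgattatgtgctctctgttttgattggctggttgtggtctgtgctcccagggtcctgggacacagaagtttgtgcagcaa
Myt1l: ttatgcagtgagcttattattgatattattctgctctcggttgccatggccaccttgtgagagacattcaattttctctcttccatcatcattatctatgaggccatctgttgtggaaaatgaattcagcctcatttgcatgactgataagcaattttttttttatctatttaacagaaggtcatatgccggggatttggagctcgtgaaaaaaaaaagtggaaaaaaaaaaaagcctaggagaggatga
RefSeq gave 3 start sites for Myt1 and 5 for Myt1l. Of these 8 windows, 1 held a GC box, once, in the fourth of Myt1l. G and C made up 38 to 54.8% of the bases in the Myt1 windows and 36.8 to 59.2% in those of Myt1l, below both CoREST windows. None of the 8 held a GT box or an E box, and 1, the fifth of Myt1l, held a homeobox core. RefSeq windows were matched for 4 of the 9 genes, and these counts describe those sequences only. Rest, Insm1, St18, Scrt1 and Scrt2 had no window, so Rcor1 and Rcor2 were the only linked members with one. The shares over all windows were not matched for G and C content. Whether GC boxes go with peaks was not tested.

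Over the 10 peaks, score and width went together, with a Spearman correlation of 0.96 (n = 10 peaks of 7 genes from 1 list), against 0.74 over all peaks. 8 of the 10 peaks were wider than the list's median of 986 bp. The exceptions were the St18 peak and the low Insm1 peak (815 bp). The Scrt2 peaks were wide for their score: at 1315 and 1517 bp they were wider than 78.5% and 87.4% of all peaks. Their scores per bp of width, 0.177 and 0.115, were below the list's median of 0.214. Those of the highest peak of each CoREST gene, of Insm1, of Scrt1 and of Rest ran from 0.292 to 0.419. Of the 10 peaks, 6 were the highest within 100 kb on either side, as were 41.9% of placed peaks, a measure that a high score itself favours; for St18 this holds only because no other peak was within that distance.

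**Figure D3:**
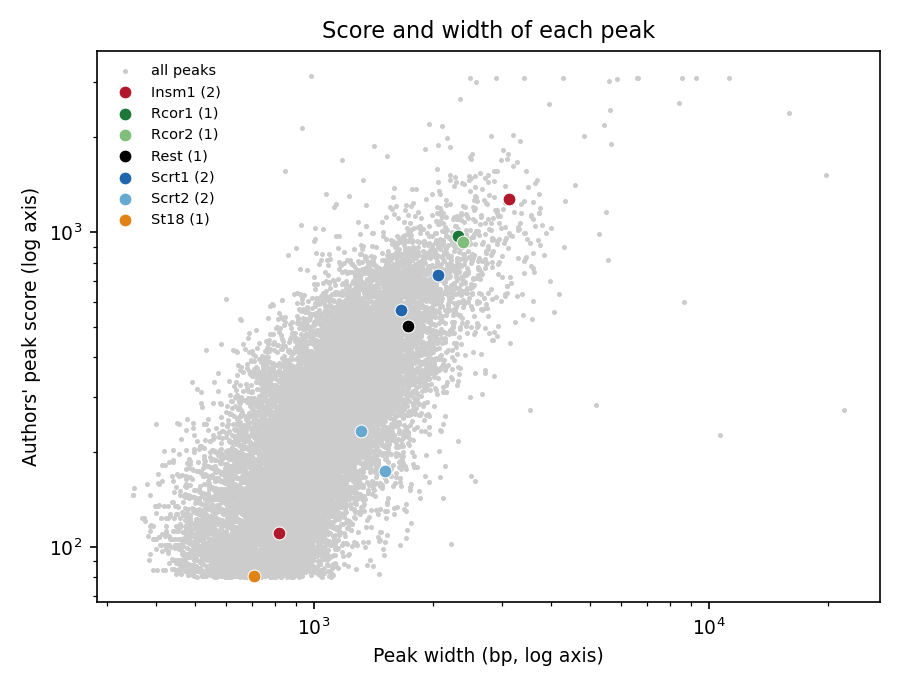
Score against width of every peak (grey) and of the 10 peaks named for the genes described (coloured, number of peaks in brackets), both on log axes. The Rcor1 and Rcor2 points nearly coincide at about the same width, 2318 and 2394 bp, and the 2 Scrt2 points lie in the lower part of the grey cloud for their width.

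The relatives of Insm1 and of the Scratch genes outside the set varied as widely. Insm2, the paralog of Insm1, had peaks of score 1048.33 and 392.33, and the higher of them was above 99.0% of all peaks. Of the other SNAG zinc finger genes, Gfi1 had 5 peaks with a highest score of 501.16, Snai3 2 peaks (245.79), Snai1 4 peaks (241.24) and Snai2 1 peak (123.54), whereas Gfi1b had none. That list, which is Insm2, the Snail genes and the Gfi1 genes, had 5 of 6 genes linked (83.3%, against 55.4% of coding genes). In it, 4 genes had a peak at or above the median (66.7%, against 35.4%) and 2 an upper-quartile peak (33.3%, against 19.2%). It was chosen with earlier results of these data known, and no test was run.

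Most genes of the complexes that REST and CoREST act through were linked too. Of 21 corepressor genes, 20 (95.2%) had a linked peak, against 55.4% of coding genes, and 17 (81%) one at or above the median score, against 35.4%. Upper-quartile peaks were linked to 12 of the 21 (57.1%), against 19.2%. This list, too, was chosen with earlier results of these data known, and no test of its shares was run. The highest scores were those of Zmym2, a zinc finger protein of the LSD1 complex (863.77), the scaffold Sin3a, which binds the N terminus of REST (765.27), Gse1 (715.28, the highest of its 8 peaks), and the deacetylase Hdac2 (626.66). The demethylase gene Kdm1a had 1 peak of score 306.94 and Hdac1 1 of 238.24. Kdm1a and Hdac1 were picked for naming after their values had been seen.

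All 6 genes of the list of REST regulators were linked, against 55.4% of coding genes, and 3 of them had an upper-quartile peak (50%, against 19.2%). Usp15 (636.38) and Usp7 (353.72) encode deubiquitinases that act on REST, and Fbxw11 (599.09) and Btrc (209.8) the ubiquitin ligase adaptors called beta-TrCP that lead to its breakdown. Srrm4, a neuronal splicing factor that turns REST into a truncated form, had 2 peaks of score 98.83 and 87.64, and its paralog Srrm3 1 of 245.03. The upper-quartile peaks were those of Usp15, Fbxw11 and Usp7, and that of Usp7 lay directly at the limit of 353.56. No test was run on these 6 genes, which were likewise chosen with earlier results known.

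Genes that REST represses through RE1, its textbook targets rather than its partners, were linked at a share nearer to the background than the corepressor genes were. Of 40 such genes, 25 (62.5%) had a linked peak, against 55.4% of coding genes. A peak at or above the median was linked to 19 (47.5%), against 35.4% of coding genes. Upper-quartile peaks were linked to 6 (15%), against 19.2%. Among the highest were the secreted peptide precursor Vgf (815.18), neuropeptide Y (Npy, 520.63) and the NMDA receptor subunit Grin2a (444.89). The median of the highest scores was 292.29 over the 25 linked target genes and 472.76 over the 20 linked corepressor genes.

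**Figure D4:**
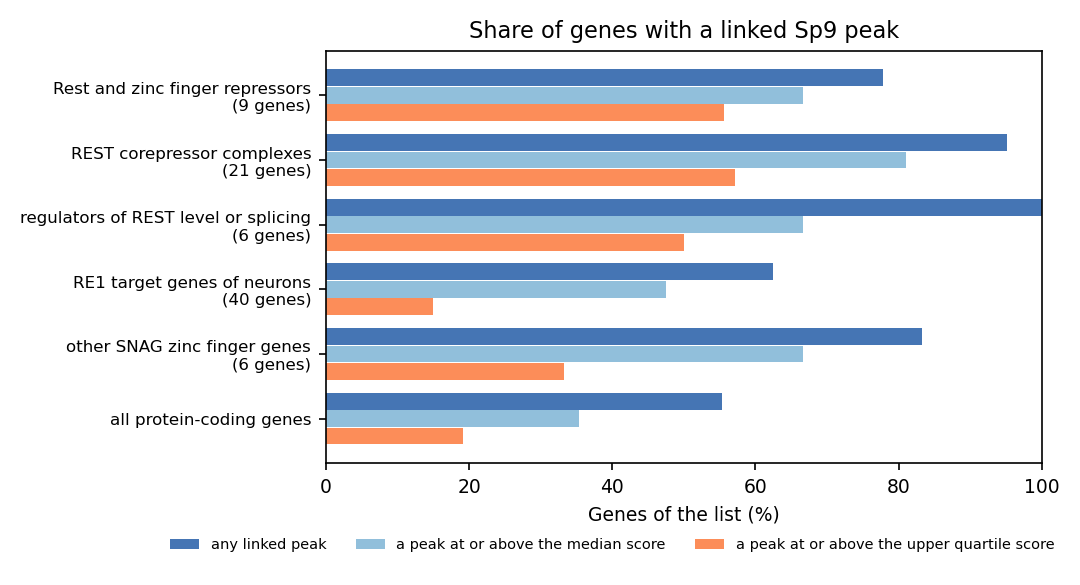
Share of genes (percent, bars from 0) with any linked peak, with a peak at or above the median score and with a peak at or above the upper quartile, for the 9 genes described, 4 lists of related genes and all 21900 protein-coding genes. The corepressor list has 95.2, 81 and 57.1% and the RE1 target list 62.5, 47.5 and 15%, with coding genes at 55.4, 35.4 and 19.2%.

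MicroRNAs close a loop with REST, which represses their genes in other cells while miR-9 and miR-124 act on messages of the REST complex. Of 9 such genes, 4 had a linked peak, against 24.4% of 1228 microRNA genes. These 9 genes were also chosen with earlier results known, and no test was run. The Mir124a-3 peak, on chromosome 2 from 180627189 to 180629585, scored 730.99, close to the main Scrt1 peak. Mir212 had 1 of 520.79, Mir9-3 had 2 (239.31 and 224.8) and Mir9-2 had 1 (234.94). Mir9-1, Mir124a-1, Mir124a-2, Mir132 and Mir29a had none. Mature sequences are shown for miR-9-5p, common to its loci, and for miR-212-3p and miR-132-3p, which share a seed. The sequences are from RefSeq (GRCm38.p6), 5′ to 3′, with the seed at bases 2 to 8 in capitals.
miR-9-5p: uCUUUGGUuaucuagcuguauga
miR-212-3p: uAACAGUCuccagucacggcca
miR-132-3p: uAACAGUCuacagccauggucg
The miR-9-5p sequence was the same for Mir9-1, Mir9-2 and Mir9-3, so the loci with a peak and the locus without one give an identical product. The miR-212-3p and miR-132-3p sequences share the seed AACAGUC, and their genes are neighbours on chromosome 11. Because the list gives 1 name per peak, a peak named Mir212 does not show that Mir132 lacks one nearby.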

How the data were processed

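Chromatin immunoprecipitation with a homemade Sp9 antibody and paired-end sequencing gave 2 libraries, with 1 input library, per the labels. The single file used holds the peak score, the positions and 1 gene name per peak as the authors deposited them. Per the submitters' processing notes, Bowtie2 2.2.4 (a read aligner), MACS 1.4.2 (a peak caller) and build mm9 are named; their roles and settings, the formula of the score, the rule for sharing and the naming of peaks were not given in the sources. Library depth is unknown.

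Members were found by exact name. For backgrounds, names were matched to RefSeq (GRCm38.p6) by symbol or by a synonym held by 1 gene; 12806 names matched by symbol, 527 by synonym and 50 did not match. No coordinate of that table was joined to a peak. Width is end minus start, and gaps run from end to start. Motifs were counted with Python 3.11.15 in the 250 bases upstream, on both strands; the counting was tested on simulated data. Protein sequences were not used here. Named were all members with their neighbouring peaks, every gene of lists of up to 10 genes and the 4 highest of longer lists; some genes that this rule names are not reported here. Members and lists were chosen with earlier results of these data known, so no test was run. Alternatives covered thresholds of score and width, name matching and joining of peaks.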

Additional observations from a re-analysis of the deposited data

How the results depend on the processing

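No paired analysis was possible because the list holds no value per library; leaving out a library and another overlap for shared peaks were not run for the same reason. Of 24 alternative values, 14 stayed within 1.5 times the value as deposited. This tally does not measure robustness, since score thresholds can only lower a count. The median per bp of width has another unit and was counted as moved for that reason. The number of linked genes among the 9 went from 7 to 6 at or above the median score (35.4% of coding genes there). It was 5 at or above the upper quartile (19.2%) and 6 without narrow peaks (34.6%). At or above the upper quartile, 6 of the 10 peaks were left. Genes linked there were 12 of 21 corepressors (57.1%), 3 of 6 regulators (50%) and 6 of 40 RE1 targets (15%). Of the other SNAG genes, 2 of 6 (33.3%) were linked there, and of all coding genes 19.2%. Of the microRNA genes, 2 of 9 (22.2%) were linked there, and the matching share over all microRNA genes was not computed. With the peaks directly beside them, the peaks numbered 24. The genes with 2 peaks fell from 3 to 1 at or above the median (Scrt1; 4.8% of coding genes had 2 or more there) and to 1 with peaks within 5 kb joined (Scrt2; 12.3%). The highest score per bp of width among the peaks of each gene had a median of 0.353 over the linked members and 0.253 over linked coding genes. These changes follow from the construction of each alternative. The unknown depth, and the lack of gene coordinates in the build of the peaks, limit what can be said of Myt1 and Myt1l.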

Other observations

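The RE1 target genes were sorted by function after their values had been seen, so what follows describes 40 genes, beside coding genes of which 55.4% had a linked peak and 35.4% one at or above the median score. Ion channels and transmitter receptors had 11 of 12 genes linked and 10 of 12 with a peak at or above the median score, from Chrnb2 (134.52) to Grin2a (444.89), and only the sodium channel gene Scn2a had none. Proteins of dense-core granules had 4 of 5 linked, but only Vgf (815.18) had a peak at or above the median, while Chgb (208.92), Chga (106.40) and Scg3 (103.40) lay below it and Scg2 had none. Of 6 synaptic vesicle fusion genes, 2 were linked, Unc13a (323.63) and Syn1 (310.68), whereas Snap25, Stx1a, Syp and Syt4 were not. Of 9 genes for neuropeptides, natriuretic peptides and transmitter synthesis or transport, 3 were linked, namely Npy (520.63), Slc18a3 (374.95) and Crh (236.56). Sst, Dbh, Th, Chat and the natriuretic peptide genes Nppa and Nppb were not. Of 4 cytoskeletal genes, 2 were linked and 1 had a peak at or above the median, Tubb3 (273.24). Of the remaining 4 genes (Bdnf, Calb1, L1cam and Celsr3), 3 were linked and 2 had such a peak, and L1cam had none. Slc18a3, the vesicular acetylcholine transporter gene, lies inside the Chat gene, and Chat carried no peak name of its own. No test of these differences was run.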
